A study of Mus musculus with 29 samples.

Results

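Atoh1 and Pou4f3 binding were compared in a pair of mouse embryonic stem cell lines that each carried Gfi1 beside the factor precipitated. The iG+A line expressed Gfi1 with Atoh1, and the iG+P line expressed Gfi1 with Pou4f3. Windows of 300 bp centred on the 20504 Atoh1 summits of iG+A and the 32632 Pou4f3 summits of iG+P were merged whenever 1 bp or more was common to them. This gave 48748 sites, out of 78408 when all 9 deposited lists were joined in the same way. Of these sites, 3629 were found in both lists, 16537 in the iG+A list only and 28582 in the iG+P list only.

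Binding was measured by chromatin immunoprecipitation and sequencing (ChIP-seq), with 17 ChIP and 12 input libraries in the series. All lines were built from the A2loxCre parent by placing a doxycycline-inducible cassette at 1 locus, with the factors joined by 2A peptides and followed by a Venus reporter. The cells differentiated in floating clumps called embryoid bodies, and all libraries came from day 6, after 48 h of doxycycline (2 µg/ml, from day 4). Each of the lists compared here came from 2 libraries, which the labels number as replicates and the design text describes as different clones. Atoh1 was pulled down through a FLAG tag and Pou4f3 through a MYC tag, so a difference between the factors and a difference between the tags cannot be told apart. Gfi1 was precipitated with an antibody to the protein, in 1 library of the iGPA line, which expressed all 3 factors, so its peaks were not measured in iG+A or iG+P themselves. Peaks had been called by the authors on merged replicates. No list therefore had a spread between replicates, no test between groups was possible, and the intervals given are exact Clopper-Pearson 95% intervals that cover counting error only. Neighbouring sites are not independent, so these intervals are too narrow to that extent.

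Atoh1 is a basic helix-loop-helix factor that binds E-boxes as a dimer with E proteins and is needed to specify hair cells of the inner ear, and also several kinds of neuron. Pou4f3 is a POU-homeodomain factor that binds AT-rich DNA and maintains differentiating hair cells. Gfi1 is a zinc finger repressor that binds DNA with an AATC core and is needed for hair cell survival. In hair cells the 3 factors are expressed together, whereas iG+A carried no Pou4f3 transgene and iG+P no Atoh1 transgene. Peak lists hold no expression, so the cell type of the embryoid bodies was not checked here.

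The iG+A list had a median fold enrichment of 3.20 and a highest fold of 53.1, where fold enrichment is the authors' ratio of ChIP fragments at a summit to the local background. The iG+P list had a median of 2.96 and a highest fold of 69.0, and the iGPA Gfi1 list of 3012 peaks had a median of 4.40. The peak files carry no read totals. As a guide to depth, the most common local background under the peaks came to 6.49 fragments in the iG+A list, 8.14 in the iG+P list and 3.55 in the Gfi1 list. As a check of the labels, summits in exons of the induced genes were counted, and they did not follow the transgenes throughout. Of these, 2 summits of the iG+A list lay in Atoh1 exons (highest fold 3.74) and none of the iG+P list did. In Pou4f3 exons 2 summits of the iG+P list (4.27) and 1 of the iG+A list (3.07) were found, and in Gfi1 exons 1 of each (3.07 in iG+A and 2.63 in iG+P). The iG+A line carries no Pou4f3 transgene, and iAtoh1, which carries neither Pou4f3 nor Gfi1, also had 1 summit in Pou4f3 exons (2.69). In iPou4f3 there were 0 summits in Pou4f3 exons and 2 in Gfi1 exons (3.45), so exon summits are no check of the lines. Where a line does carry the transgene, reads of the inserted copy and of the gene itself cannot be told apart.

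The strongest sites of each class by fold enrichment are shown first, and 100 bp around the summit of each is printed on the plus strand of mm9. The letters were read from NCBIM37, the assembly that mm9 names. Capitals mark E-boxes and, at iG+P only sites, the word GCATTATT. The E-boxes searched for were CAGCTG, which reads the same on either strand, and CAGATG, whose complement on the other strand reads as CATCTG. At the highest iG+A only sites the E-box was the repeated or central word, with a 25-bp unit at the site in 6720456H20Rik, a 16-bp unit at the site in Dnahc2, a dynein heavy chain gene, and a lone CAGCTG at the intergenic site.
iG+A only, intron of 6720456H20Rik, chr14:49095445-49095544: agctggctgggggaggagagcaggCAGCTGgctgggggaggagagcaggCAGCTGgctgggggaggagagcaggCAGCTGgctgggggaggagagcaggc
iG+A only, intron of Dnahc2, chr11:69273496-69273595: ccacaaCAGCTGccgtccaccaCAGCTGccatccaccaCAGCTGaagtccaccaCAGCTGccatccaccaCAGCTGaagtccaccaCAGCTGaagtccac
iG+A only, intergenic, chr3:144306667-144306766: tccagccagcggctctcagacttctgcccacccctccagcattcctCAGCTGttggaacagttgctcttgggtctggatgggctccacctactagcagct
These sites had folds of 53.1, 51.8 and 46.7 in the Atoh1 list. All of them also had peaks in the Atoh1 lists of iAtoh1, iP+A and iGPA and in the Gfi1 list, where their folds were 3.16, 7.04 and 5.81. Although iG+P had no peak there, all 3 had Pou4f3 peaks in iP+A and iGPA, and the site in 6720456H20Rik had one in iPou4f3 as well.

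The highest iG+P only site had a Pou4f3 fold of 69.0 and lay 29151 bp from the nearest annotated start, that of Gm13203. It held GCATTATT.
iG+P only, intergenic, chr4:148116913-148117012: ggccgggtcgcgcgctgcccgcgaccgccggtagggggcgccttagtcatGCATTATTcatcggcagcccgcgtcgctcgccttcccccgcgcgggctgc
The next highest iG+P only sites held the same word. They lay at chr11:96912614-96912913 (fold 58.0), in an intron of Osbpl7, a lipid-binding protein gene, and next to the start of Gm11574, and at chr8:74233702-74234001 (fold 35.6), in Fcho1, an endocytosis gene, where the Pou4f pattern was also present. All 3 were called in the Pou4f3 lists of iPou4f3, iP+A and iGPA as well, and the first and last of them also for Atoh1 in iGPA. None of the 3 had a Gfi1 peak.

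Shared sites were ranked by the lower of both folds, and single folds of the class reached 46.6 for Atoh1 and 25.5 for Pou4f3. By contrast, the highest sites in this ranking held neither an E-box of these kinds nor the Pou4f pattern in the 100 bp around the Atoh1 summit. They are printed to show this, and the letters searched for are spelled out with the patterns further on. Among the 100 highest folds of this class, 23 sites held such an E-box and 7 the Pou4f pattern.
shared site 1, chr1:159529582-159529681: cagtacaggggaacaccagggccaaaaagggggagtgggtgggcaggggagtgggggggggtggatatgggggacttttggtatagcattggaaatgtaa
shared site 2, chr7:101990858-101990957: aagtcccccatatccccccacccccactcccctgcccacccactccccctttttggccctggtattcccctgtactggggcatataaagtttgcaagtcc
shared site 3, intron of Cntnap5b, chr1:102076817-102076916: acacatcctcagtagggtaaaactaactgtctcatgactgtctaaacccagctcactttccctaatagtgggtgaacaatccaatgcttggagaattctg
Shared sites 1 and 2 each had a fold of 11.7 for Atoh1 and a higher one for Pou4f3. Their windows shared a run of 43 bp when one of them was read on the opposite strand, against 6 bp on the same strand, so they hold near copies of 1 sequence. Shared site 3 had folds of 10.7 and 17.6 and a Gfi1 fold of 4.60. Each of the 3 was called in at least 5 of the 7 other lists, among them lists of both factors.

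The smaller part of each list was shared, by an amount that depended on which peaks were taken. The 3629 shared sites were 7.44% (7.21 to 7.68) of all 48748 sites, 18.0% (17.5 to 18.5) of the 20166 sites with Atoh1 in iG+A and 11.3% (10.9 to 11.6) of the 32211 sites with Pou4f3 in iG+P. The share of the Atoh1 sites was 35.5% with all called peaks of both lists and 11.0% with a −log10 p of at least 10 in both lists. Their summits lay a median of 63 bp apart, and 44.4% (42.7 to 46.0) lay within 50 bp of each other. Many Atoh1 peaks were far from any Pou4f3 peak, and 36.1% (35.4 to 36.8) of the Atoh1 summits had no Pou4f3 summit within 20 kb (20000 bp).

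Many of the shared sites lay in a small part of the genome. A dense stretch was defined, after the data were seen, as a run of sites with at least 20 sites within 50 kb to each side. There were 83 such stretches, 14.0 Mb in all or 0.527% of the genome, and they held 49.3% (1790) of the shared sites, 13.1% of the iG+A only sites and 11.2% of the iG+P only sites. The 5 with the most shared sites held 809 shared sites, 22.3% of the class. They lay at chr14:3433406-5556708, chr14:7109459-8496819, chr4:146318024-147195126, chr4:144967804-145460463 and chr13:12829508-13098570. Their nearest starts belonged to Gm3667, to the vomeronasal receptor pseudogene Vmn2r-ps19 and to the prolactin family genes Prl2c3 and Prl2c2, among others, which are families of close copies. How well reads map to a single copy there was not tested. Within dense stretches the 300-bp windows covered 8.83% of the bases for iG+A and 11.0% for iG+P, against 0.186% and 0.312% elsewhere. Sharing was 45.2% (43.6 to 46.8) of the Atoh1 sites inside them and 11.3% (10.9 to 11.8) of the 16205 outside them.

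**Figure D1:**
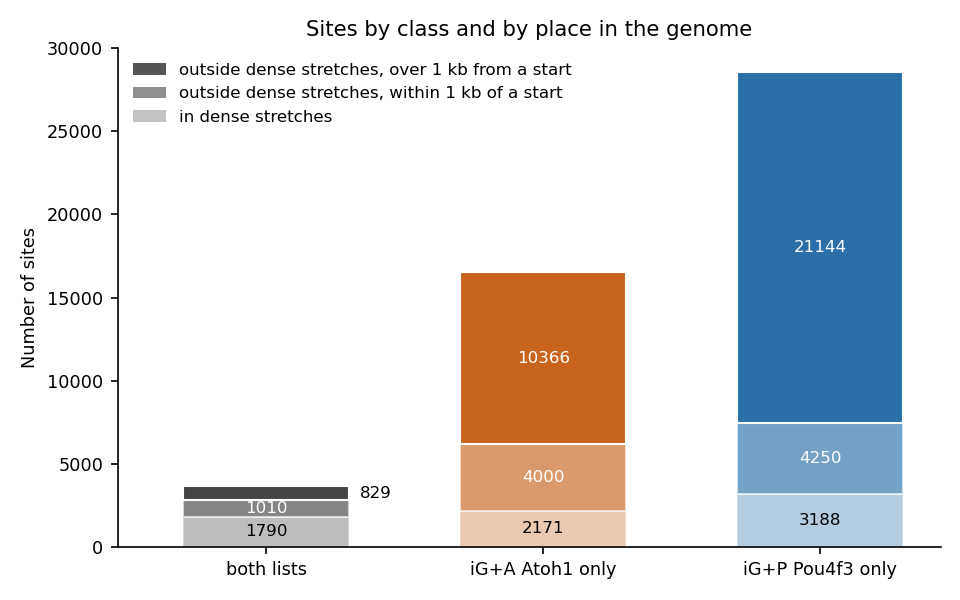
Number of sites in each class (bars), split by place in the genome: in dense stretches (lightest), outside them within 1 kb of a transcription start, and outside them over 1 kb from a start (darkest). Of the shared sites 1790 lay in dense stretches, 1010 near a start and 829 in neither, whereas 10366 iG+A only and 21144 iG+P only sites were in neither.

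Outside the dense stretches, shared sites were promoter sites more often than the others. A site was counted as near a start when its Atoh1 summit, or the Pou4f3 summit of an iG+P only site, lay within 1 kb of the start of any annotated transcript. This held for 54.9% (52.6 to 57.2) of the 1839 shared sites there, 27.8% of iG+A only and 16.7% of iG+P only sites. With the dense stretches included, the shares were 32.7% (31.2 to 34.3), 25.5% (24.8 to 26.1) and 15.9% (15.4 to 16.3). The share of shared sites near a start was 13.7% with a −log10 p of at least 10 in both lists and 21.8% with all called peaks. Of the Atoh1 sites outside dense stretches, 20.2% (19.1 to 21.3) near a start and 7.41% (6.93 to 7.91) farther away were shared with Pou4f3. Base composition followed the same order outside dense stretches, with a median of 62.4% G and C in the 250 bp at shared sites, 54.4% at iG+A only and 42.4% at iG+P only sites. Over all sites the order was another, with medians of 46.4% at shared, 53.2% at iG+A only and 42.0% at iG+P only sites. At least 10 CG dinucleotides in 250 bp, as in CpG islands, were found at 58.6% of the shared, 25.4% of the iG+A only and 14.4% of the iG+P only sites there.

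The iG+P only sites were the most remote from genes. Their summits lay a median of 13448 bp from the nearest start, against 7902 bp for iG+A only and 5059 bp for shared sites, and 22.7% of them were over 50 kb away, against 14.6% and 8.71%. Introns held 44.8% of the iG+P only, 41.6% of the iG+A only and 36.5% of the shared sites. Coding exons held 2.62%, 4.15% and 5.10% in the same order. Intergenic shares differed little, at 47.0%, 45.8% and 47.4%.

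Sharing was also uneven along the chromosomes and along the strength of the peaks. Over the autosomes and X, the shared part of the Atoh1 sites ran from 8.71% on chromosome 2 to 37.0% on chromosome 14, with a median of 14.2%. Without the dense stretches it ran from 8.71% on chromosome 2 to 22.5% on X, with a median of 11.3%. When the peaks were ranked by −log10 p into deciles, the shared part of the Atoh1 peaks was 13.2% (11.7 to 14.7) in the weakest decile, 23.6% (21.7 to 25.5) in decile 7 and 14.5% in the strongest. For the Pou4f3 peaks the same deciles gave 9.07%, 14.9% and 8.52%. The strongest peaks of either factor were thus not the ones most often shared. Peaks with a local background over 2 times this most common value made up 6.14% of the shared and 0.822% of the iG+A only sites in the Atoh1 list, and 5.65% of the shared and 0.427% of the iG+P only sites in the Pou4f3 list. Their part in the sharing was not tested, but the shared part of the Atoh1 sites without them was 16.9% (16.4 to 17.4).

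The highest −log10 p of each list lay at a shared site that reached the last base of chromosome 11, and another shared site reached the end of chromosome 5. At chr11:121843616-121843856 the values were 2308 for Atoh1 and 2016 for Pou4f3, and at chr5:152537046-152537259 they were 1229 and 982. The folds there were moderate, between 4.51 and 6.57. The site on chromosome 11 was called in all 7 other lists and that on chromosome 5 in 5 of them.

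The classes differed in sequence content. For each summit the 250 bp around it were searched on both strands, and the same length was searched 1000 bp away on each side to show how often a pattern occurs nearby. AtEAM, an E-box with the flanking bases that Atoh1 prefers, was found at 18.9% (18.3 to 19.5) of the iG+A only sites, against 2.04% of their flanks. At shared sites it was found at 3.91% (3.31 to 4.60), against 1.94% of the flanks, and at iG+P only sites at 1.71% (1.56 to 1.87), against 1.98%. The plain E-boxes CAGCTG or CAGATG, without flanking bases, gave the same order, at 69.7% (flanks 28.2%), 34.8% (24.9%) and 24.0% (25.8%). Of these words CAGCTG was at 47.1% of the iG+A only sites and 9.71% of the iG+P only sites, whose flanks had 9.81%. Hence the iG+P only sites had E-boxes no more often than the DNA beside them.

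The Pou4f pattern, ATAATTAAT with 1 mismatch allowed, gave the mirror image. It was found at 46.3% (45.7 to 46.9) of the iG+P only sites, against 10.7% of their flanks. At iG+A only sites it was found at 3.05%, below the 8.22% of their flanks. At the Pou4f3 summit of shared sites it was at 10.2% (9.26 to 11.3), and their flanks also gave 10.2%. With no mismatch the pattern was at 8.52% of the iG+P only sites, against 0.488% of the flanks. At the Pou4f3 summit of shared sites it was then rare but above the flanks, at 0.882% (0.604 to 1.24) against 0.372% (0.245 to 0.541). GCATTATT, a word chosen after it was seen at the 3 highest iG+P only sites, was at 10.2% (9.83 to 10.5) of the iG+P only sites (flanks 0.805%), 0.937% of the shared and 0.260% of the iG+A only sites. Among the 100 highest folds of iG+P only sites, 51 held GCATTATT and 63 the Pou4f pattern. Sites can hold both, so these counts overlap.

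**Figure D2:**
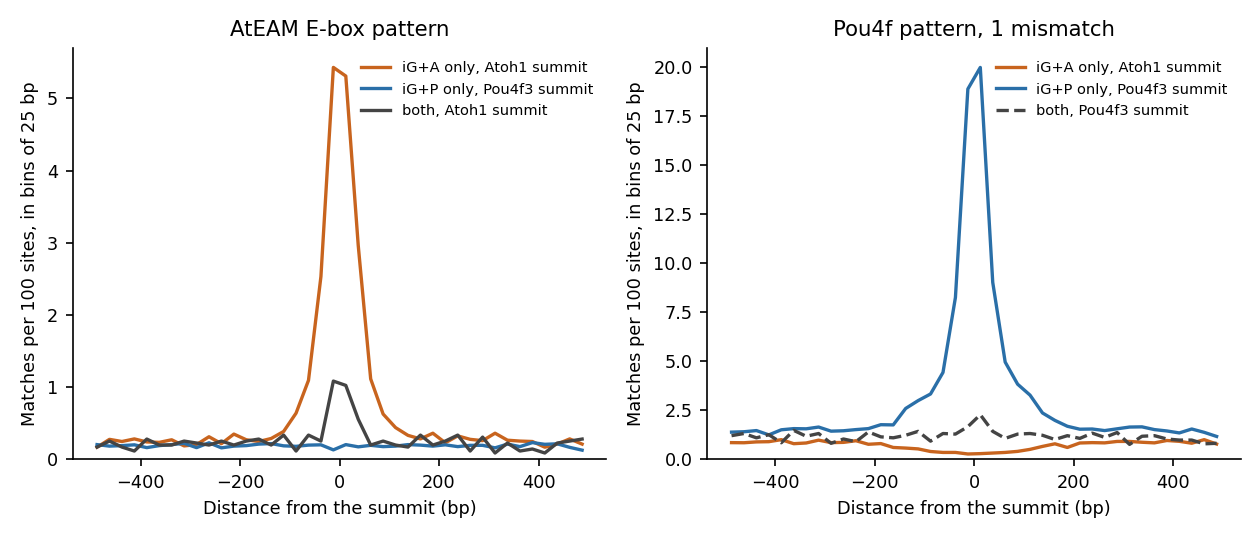
Matches per 100 sites in bins of 25 bp (y axis) by distance from the summit (x axis, bp) for the AtEAM pattern (left) and the Pou4f pattern (right), with a line for each class. AtEAM reached 5.43 per 100 at iG+A only summits and 1.08 at shared Atoh1 summits, and Pou4f reached 20.0 per 100 at iG+P only summits and 2.26 at shared Pou4f3 summits.

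The pattern of a factor lay near its own summit at the single-factor sites. Of the AtEAM matches, 56.7% (54.9 to 58.4) at iG+A only and 54.2% (45.7 to 62.6) at shared sites were within 25 bp of the Atoh1 summit, against 19.6% at iG+P only sites. The Pou4f pattern was within 25 bp of the Pou4f3 summit in 57.3% (56.4 to 58.1) of the iG+P only and 31.8% (27.1 to 36.8) of the shared sites that held it, and within 25 bp of the Atoh1 summit in 16.1% of the iG+A only sites that held it. The profile plot shows narrow peaks of AtEAM at iG+A only and of Pou4f at iG+P only summits, and the line of the Pou4f pattern dips at the Atoh1 summits of iG+A only sites.

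Shared sites therefore carried the pattern of either factor less often than the sites of that factor alone. Neither an E-box of these kinds nor the Pou4f pattern was found at 60.2% of the shared sites around the Atoh1 summit, against 28.9% of the iG+A only sites. AtEAM and the Pou4f pattern occurred together in 16 of the 3629 shared sites (0.441%, 0.252 to 0.715). At 2 of the 16 both patterns lay in the 100 bp at the Atoh1 summit (chosen after their sequences were seen). They lay at chr11:100800444-100801026, at −23 bp from the start of Stat3, a signalling factor gene (folds 4.94 and 4.49), and at chr16:23842876-23843196, 47883 bp from Sst, the somatostatin gene (2.80 and 3.94). The latter is shown with the Pou4f pattern first and AtEAM second in capitals.
shared, intergenic, chr16:23842997-23843096: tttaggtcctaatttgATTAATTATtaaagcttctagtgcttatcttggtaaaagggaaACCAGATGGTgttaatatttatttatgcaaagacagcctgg
Neither of them had a Gfi1 peak. Outside dense stretches the shared sites held E-boxes more often, at 42.5% (40.2 to 44.8) against flanks of 25.2%, and AtEAM at 5.66% (4.64 to 6.81). The Pou4f pattern was at 7.29% (6.14 to 8.57) of them, with 9.00% of the flanks. With no mismatch it was at 0.816% (0.457 to 1.34), with 0.326% (0.169 to 0.570) of the flanks.

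A small part of the summits lay in short repeats. A summit in a tandem repeat with a unit of 1 to 12 bp was found at 1.76% of the shared, 0.732% of the iG+A only and 0.556% of the iG+P only sites. Of the 64, 121 and 159 such sites in these classes, 20, 8 and 0 were among the 100 highest folds of their class. Longer units, of 13 to 50 bp, were at 18 of the 100 highest iG+A only sites, 3 of the highest shared and 1 of the highest iG+P only sites. In the printed sequences these units carry an E-box, as in 6720456H20Rik and Dnahc2.

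In the other lines, the single-factor sites had peaks of their own factor more often than of the other one. A peak in at least 1 of the 3 other Atoh1 lists was found at 65.7% of the iG+A only, 78.0% of the shared and 19.7% of the iG+P only sites. A peak in at least 1 of the 3 other Pou4f3 lists was found at 13.8%, 55.5% and 61.1% in the same order. Sites with no peak in any of the 7 other lists were 30.6% (29.9 to 31.4) of iG+A only, 13.4% (12.4 to 14.6) of shared and 31.5% (31.0 to 32.1) of iG+P only sites. Shared sites thus had a peak in at least 1 of the 7 other lists more often, but peaks of either factor count there. Other Atoh1 peaks were more frequent at shared than at iG+A only sites (78.0% against 65.7%). Other Pou4f3 peaks were less frequent at shared than at iG+P only sites (55.5% against 61.1%). Shared sites are also longer and lie more often in dense stretches. Outside dense stretches, other Atoh1 peaks were at 76.0% of shared and 66.7% of iG+A only sites. Peaks of iGPA Atoh1 were at 60.2% and 58.3% of these, and other Pou4f3 peaks were at 61.3% of the shared sites. The part of length and of dense stretches in the differences was not tested.

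**Figure D3:**
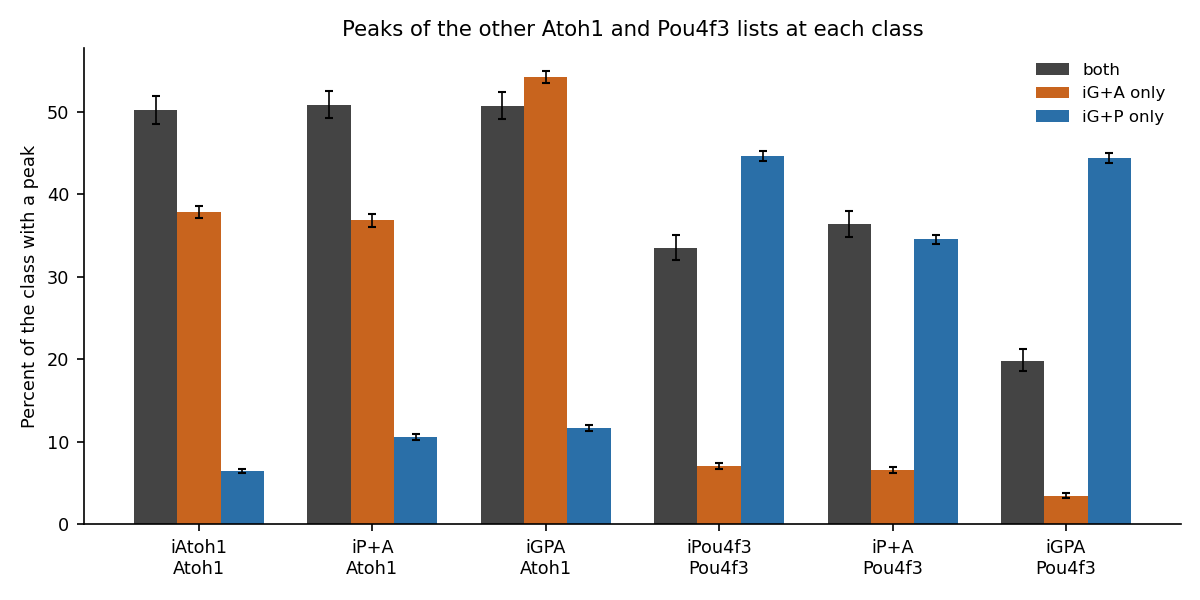
Percent of each class (bars) with a peak in each of the 6 other Atoh1 and Pou4f3 lists (x axis), with exact 95% binomial intervals. For iGPA Atoh1 the values were 50.7% of shared, 54.2% of iG+A only and 11.7% of iG+P only sites, and for iGPA Pou4f3 they were 19.8%, 3.48% and 44.4%.

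In the line with all 3 factors, the sites where Atoh1 and Pou4f3 met were mostly Pou4f3 sites of iG+P. Of the 3946 iGPA sites with both factors, 45.6% (44.1 to 47.2) had a peak in the iG+P list only, 10.4% (9.43 to 11.4) in the iG+A list only, 14.0% (12.9 to 15.1) in both and 30.0% (28.6 to 31.5) in neither. The iG+P list is also the longer one. Seen from the classes, 6.41% (6.13 to 6.70) of the iG+P only sites had both factors in iGPA, against 2.60% (2.36 to 2.85) of the iG+A only and 14.8% (13.6 to 16.0) of the shared sites.

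What the shared sites held was set beside the same in the pairs of lists from the other lines. Outside dense stretches, which were found anew for each pair, 11.3% of the Atoh1 sites were shared here. The values were 10.2% (9.63 to 10.7) between iAtoh1 and iPou4f3, which lack Gfi1, 20.3% (19.7 to 21.0) within iP+A and 15.4% (15.0 to 15.9) within iGPA, where both factors were in the same cells. At these shared sites the Pou4f pattern was found in 7.29% here, 6.11% between iAtoh1 and iPou4f3, 29.2% in iP+A and 36.2% in iGPA. AtEAM was found in 5.66%, 7.55%, 12.5% and 15.2% in the same order. For both patterns the intervals of the iG+A and iG+P pair (Pou4f 6.14 to 8.57, AtEAM 4.64 to 6.81) overlapped those between iAtoh1 and iPou4f3 (4.81 to 7.63 and 6.11 to 9.21). For the shared part of the Atoh1 sites they did not overlap (10.9 to 11.8 against 9.63 to 10.7). These intervals cover counting error over sites only and no spread between replicates, so they do not test a difference between the lines. Over all sites the shared part was 18.0% (17.5 to 18.5) for the iG+A and iG+P pair and 11.3% (10.8 to 11.8) between iAtoh1 and iPou4f3. The lists differ in length and depth, and the part of these differences in the values was not tested.

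**Figure D4:**
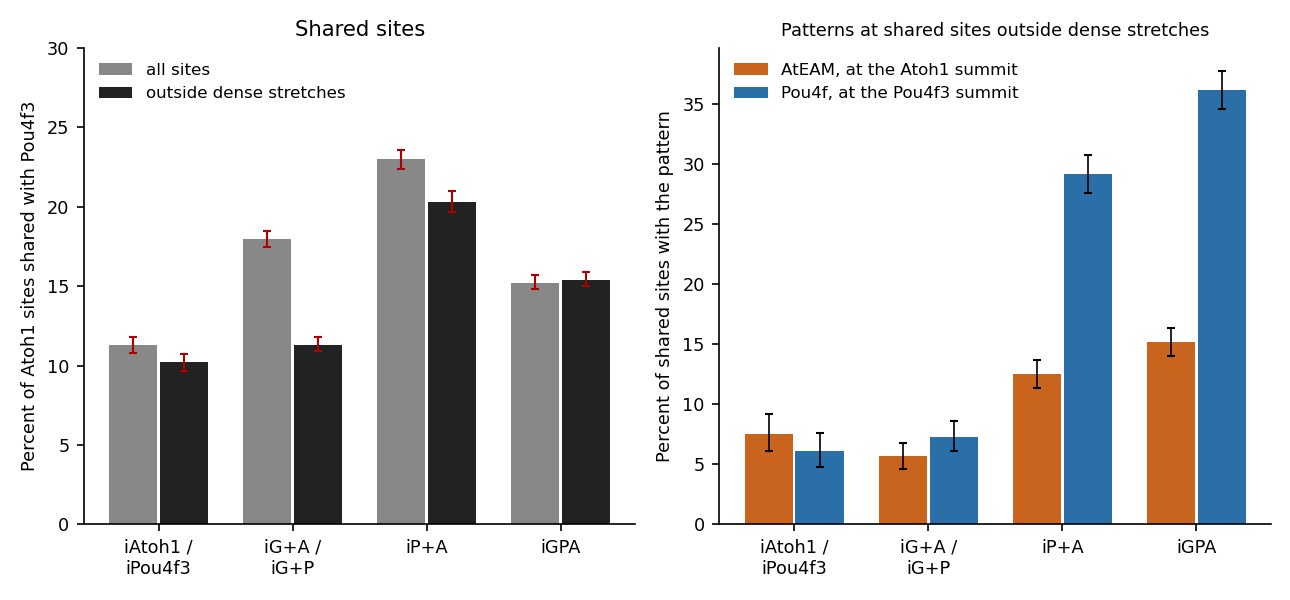
Left, percent of Atoh1 sites shared with Pou4f3 for the 4 pairs of lists (x axis), over all sites (grey) and outside dense stretches (black); right, percent of the shared sites outside dense stretches with AtEAM (orange) or the Pou4f pattern (blue). Error bars are exact 95% binomial intervals, and the iG+A and iG+P pair stood at 18.0% over all sites and 11.3% outside dense stretches.

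Gfi1 peaks of iGPA were found at few sites of any class, most often at shared sites. The study describes a relatively low enrichment with this antibody, which left few detectable peaks. A site without a Gfi1 peak is therefore not shown to lack Gfi1. Of all 48748 sites 3.33% (1623) had a Gfi1 peak. The share was 8.27% (300 sites, 7.39 to 9.21) at shared, 4.29% (709 sites, 3.98 to 4.61) at iG+A only and 2.15% (614 sites, 1.98 to 2.32) at iG+P only sites. Shared sites are also longer, with a median of 372 bp against 300 bp in the other classes, and the part of this in the difference was not tested. Among the sites of a single class this does not arise, and there Atoh1 sites had a Gfi1 peak more often than Pou4f3 sites. The order from shared to iG+A only to iG+P only was the same on 18 of the 20 chromosomes, Y left out.

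The order also held near starts, where the shares were 9.09%, 5.70% and 4.37%, and over 1 kb from them, at 7.87%, 3.80% and 1.73%. Outside dense stretches the shares were 11.6%, 4.51% and 2.02%. Inside dense stretches the order of the single classes turned, at 4.80% (3.86 to 5.90) of shared, 2.81% (2.16 to 3.59) of iG+A only and 3.17% (2.59 to 3.84) of iG+P only sites, with intervals of the last 2 that overlap. Strong peaks had Gfi1 most often. In the strongest decile by −log10 p, 15.2% (13.6 to 16.8) of the Atoh1 peaks and 6.62% (5.79 to 7.53) of the Pou4f3 peaks had a Gfi1 peak, against 2.19% and 1.72% in the weakest decile.

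**Figure D5:**
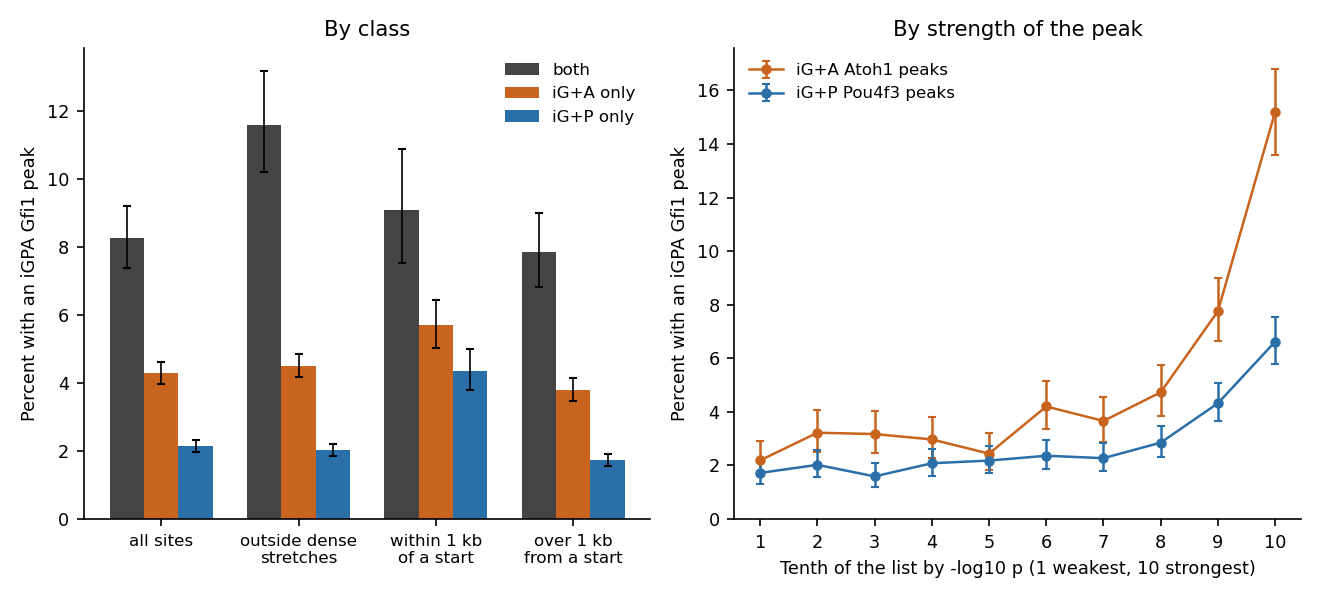
Left, percent of each class with an iGPA Gfi1 peak (bars) over all sites, outside dense stretches, and within or over 1 kb from a start; right, the same percent for Atoh1 and Pou4f3 peaks by decile of −log10 p (x axis). Error bars are exact 95% binomial intervals, and the Gfi1 share was 2.19% in the weakest and 15.2% in the strongest decile of the Atoh1 list.

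Sites with a Gfi1 peak had higher Atoh1 or Pou4f3 folds than those without. The medians were 4.27 against 3.20 at iG+A only and 3.50 against 2.96 at iG+P only sites. At shared sites they were 3.74 against 3.34 for Atoh1 and 3.28 against 3.06 for Pou4f3. The Gfi1 pattern, AATCACAGC or AATCACTGC, was rare even there. It was found at 3.39% (2.18 to 4.99) of the iG+A only sites with a Gfi1 peak and 0.505% of those without. For iG+P only sites the values were 2.61% (1.50 to 4.20) and 0.493%, and for shared sites 3.00% (1.38 to 5.62) and 0.481%. The shorter core AATCAC was at 17.6% of the iG+A only sites with a Gfi1 peak and 7.83% of those without. For iG+P only sites the core gave 14.8% and 9.79%, and for shared sites, at the Atoh1 summit, 15.0% and 8.62%.

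Seen from the Gfi1 list, the pattern was commonest where neither the iG+A nor the iG+P list had a peak. Joined in the same way, the list gave 3008 sites, of which 46.8% (45.0 to 48.6) had no peak in either list, 23.5% (22.0 to 25.1) a peak in the iG+A list only, 20.1% (18.7 to 21.6) in the iG+P list only and 9.51% (8.48 to 10.6) in both. The Gfi1 pattern was at 9.94% (8.43 to 11.6) of the sites with neither, 5.51% (3.95 to 7.45) of those with Atoh1 only, 3.80% (2.42 to 5.64) of those with Pou4f3 only and 3.15% (1.45 to 5.89) of those with both. E-boxes were at 65.5% of the Gfi1 sites with Atoh1 only and 29.6% of those with neither, and the Pou4f pattern was at 27.7% of those with Pou4f3 only and 7.74% of those with neither. A peak of Atoh1 itself in iGPA was found at 76.6% of the Gfi1 sites with Atoh1 only, 71.3% of those with both, 49.8% of those with Pou4f3 only and 18.3% of those with neither. For a peak of Pou4f3 in iGPA the values were 12.3%, 40.2%, 59.7% and 10.7% in the same order.

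Sites with high Gfi1 folds in each class are printed with E-boxes and the Gfi1 pattern in capitals. They were taken on chromosomes 1 to 17, 19 and X and outside tandem repeats of units of 1 to 12 bp, and the highest Gfi1 fold of any iG+P only site, 220, lay outside these limits. The shared site, in an intron of Panx1, a channel gene, had a Gfi1 fold of 124 and folds of 4.01 and 3.83 for Atoh1 and Pou4f3, and its 20-bp unit carried CATCTG. The site in an intron of Oxr1, a gene of oxidation resistance, ranked second among the iG+A only sites, with a Gfi1 fold of 16.5 and an Atoh1 fold of 5.34. It held the Gfi1 pattern, read on the minus strand, beside several E-boxes. The highest of that class, with 18.9, is not printed and was in an intron of Rab38 and had a repeat of 29 bp that also carried CATCTG. The iG+P only site lay at −4443 bp from the start of the mitotic kinase gene Aurkb, with a Gfi1 fold of 22.4 and a Pou4f3 fold of 4.82, and held none of the patterns in this window.
shared, intron of Panx1, chr9:14840155-14840254: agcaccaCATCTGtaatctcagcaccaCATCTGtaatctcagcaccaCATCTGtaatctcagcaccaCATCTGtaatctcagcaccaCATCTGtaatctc
iG+A only, intron of Oxr1, chr15:41347317-41347416: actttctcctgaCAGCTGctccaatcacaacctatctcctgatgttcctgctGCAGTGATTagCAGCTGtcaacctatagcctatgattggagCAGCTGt
iG+P only, upstream of Aurkb, chr11:68854656-68854755: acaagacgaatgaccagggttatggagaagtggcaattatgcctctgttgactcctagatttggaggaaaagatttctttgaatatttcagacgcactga

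Sites were assigned to the gene with the nearest start, which need not be the gene they act on. Of 22367 protein-coding genes, 35.1% were nearest to an iG+A Atoh1 site, 43.7% to an iG+P Pou4f3 site and 6.75% (1510) to a site in both lists. Both factors at separate sites only were found for 15.6%, Atoh1 alone for 12.8%, Pou4f3 alone for 21.3% and neither for 43.6%. Genes with both factors at separate sites only were thus more frequent than genes with a shared site. Single-factor sites also far outnumber shared ones, and the part of this was not tested.

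Genes with the most sites per class were those of the dense families. Prl2c3 had 47 shared, 63 iG+A only and 63 iG+P only sites. It was followed for shared sites by Gm3667 (31), Prl2c2 (28), Tmem181b-ps (23) and Vmn2r-ps19 (23), for iG+A only by a U6 gene (29), Prl2c2 (25), Gm9597 (23) and Tmem181b-ps (22), and for iG+P only by Gm10479 (40), Gm8837 (40), Naip6 (38) and another U6 gene (36). Outside dense stretches other genes led. For shared sites these were 6820431F20Rik and Speer4c, with 6 each. Robo1, an axon guidance receptor gene, had 17 iG+P only and 5 iG+A only sites. Gse1 had 20 iG+A only and 10 iG+P only sites, Cbfa2t3, a corepressor gene, had 13 and 1, and Auts2, a neurodevelopmental gene, had 14 and 19. Fam92b had 20 and 4.

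The induced genes themselves were all reached by both factors. The strongest Atoh1 sites nearest to Atoh1, Pou4f3 and Gfi1 lay in their exons, at folds of 3.74, 3.07 and 3.07. The iG+A line carries inserted copies of Atoh1 and Gfi1 but not of Pou4f3. The strongest Pou4f3 site near Pou4f3 lay at −1300 bp from its start, with a fold of 11.9 and no Gfi1 peak. That near Gfi1 lay at 10512 bp, with a fold of 2.85.

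The Notch pathway, which sets apart hair cells and supporting cells by signalling between neighbours, was reached by Atoh1 in 18 of its 21 listed genes and by Pou4f3 in 18, where the shares over all genes were 35.1% and 43.7%. A shared site was nearest to 5 of them (Dll1, Hes1, Hes6, Nrarp and Rbpj), 11 had both factors at separate sites only, 2 had Atoh1 only, 2 Pou4f3 only and 1 (Rfng) neither. Hes6, a target of proneural factors, had the highest Atoh1 fold of the list, 25.4 at −212 bp from the start, in a shared site with a Gfi1 peak and a Pou4f3 fold of 2.63. Hes1, the effector that represses Atoh1, had a shared site at its promoter with folds of 8.41 for Atoh1 and 2.74 for Pou4f3. Dll1, a ligand made by nascent hair cells and neurons, had a shared site with a Gfi1 peak and an Atoh1 fold of 8.54 at 25135 bp. Notch1, the receptor, had an Atoh1 fold of 16.2 at −16480 bp from its start, at a site with AtEAM and a Gfi1 peak, and a separate Pou4f3 site with a fold of 2.96. Hes5 and Heyl had Atoh1 only, with folds of 7.08 and 10.3 and AtEAM at both sites. Dll4 and Mib1 had Pou4f3 only, with folds of 2.41 and 5.36 at 9482 and 76545 bp from their starts.

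All 7 E protein and Id genes, the partners of Atoh1 and their inhibitors, had sites of both factors, 3 of them (Tcf4, Tcf12 and Id2) a shared one. Of all protein-coding genes, 6.75% had a shared site and 15.6% had both factors at separate sites only. Id1, an inhibitor of E proteins, had an Atoh1 fold of 21.5 at −12206 bp, with AtEAM and a Gfi1 peak, against a highest Pou4f3 fold of 2.52. Tcf3, which encodes the E proteins E12 and E47, had folds of 4.67 and 6.35 at separate sites.

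Among 20 hair cell regulators, 10 had Atoh1 and 13 had Pou4f3, beside 35.1% and 43.7% of all genes. Ikzf2, a factor of outer hair cells, had the only shared site of the list, 7 genes had both factors at separate sites only, 2 had Atoh1 only (Prox1 and Hmx3), 5 had Pou4f3 only and 5 had neither (Lhx3, Insm1, Gfi1b, Gata3 and Sox2). Eya1, a cofactor of early ear development, had the highest Pou4f3 fold, 17.8 at −38460 bp, and an Atoh1 fold of 4.27. Barhl1, a homeobox gene kept on in hair cells, had an Atoh1 site with a fold of 4.67 at 3907 bp and a Pou4f3 site with a fold of 8.21 at 1816 bp. Pou4f1, a relative of Pou4f3, had Atoh1 at its promoter (fold 4.41) and 9 iG+P only sites (highest fold 7.22). Prox1, which marks supporting cells, had an Atoh1 fold of 8.01 at −80033 bp from its start and no Pou4f3 site.

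Of 32 genes of hair cell structure and function, 12 had Atoh1 and 22 had Pou4f3. A shared site was nearest to 1 of them (Espn, an actin-bundling protein gene), 10 had both factors at separate sites only, 1 Atoh1 only (Calb1), 11 Pou4f3 only and 9 neither. Myo6, a myosin of the hair bundle base, had a Pou4f3 fold of 9.19 at 378 bp, with the Pou4f pattern, and an Atoh1 fold of 4.41 at 6685 bp, with AtEAM. Cib2, a subunit of the mechanotransduction complex, had an Atoh1 fold of 6.68 with AtEAM and a Pou4f3 fold of 2.52. Ocm, a calcium buffer gene of outer hair cells, and Otof, needed for transmitter release, had Pou4f3 only, with folds of 8.54 and 3.72. Myo7a, Pcdh15, Strc and Slc26a5 were among those with neither, so the list was reached in parts. The share with Pou4f3 in this list, 22 of 32, stood beside 43.7% of all genes, and the share with Atoh1, 12 of 32, beside 35.1%.

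Of 32 neuronal genes, 14 had Atoh1 and 22 had Pou4f3, beside 35.1% and 43.7% of all genes. There was 1 gene with a shared site, where all genes gave 6.75%, 9 genes with both at separate sites only, 4 with Atoh1 only, 12 with Pou4f3 only and 6 with neither. The shared site was at Nhlh1, a helix-loop-helix gene of young neurons, at −230 bp from its start, where the Pou4f3 fold was 16.3 and AtEAM and a Gfi1 peak were present. Neurog1, which specifies auditory neurons, had Pou4f3 at its promoter (−147 bp) with a fold of 16.7 and the Pou4f pattern, and no Atoh1 site. Ntrk3, a neurotrophin receptor gene, had a Pou4f3 fold of 18.8 at −94106 bp from its start, with a Gfi1 peak. Ncam1, a cell adhesion gene, had a Pou4f3 fold of 10.4 at −36617 bp. Rbfox3, which encodes the neuronal antigen NeuN, had an Atoh1 fold of 8.14 and a Pou4f3 fold of 4.16. Nhlh2, Tubb3 and Snap25 were among those with Atoh1 only, and the fold at Nhlh2 was 3.20. Dcx, Elavl3 and Neurod1 were among the genes with neither.

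A Gfi1 peak was present at a site of 4 of the 21 Notch genes, 3 of the 7 E protein and Id genes, 7 of the 32 neuronal genes, 4 of the 20 regulators and 1 of the 32 structural genes (Tmc2), where 4.90% of all protein-coding genes had one. Only a gene with an iG+A or iG+P site could be counted, and 43.6% of all protein-coding genes had no such site. In the same order, 1 of 21, 0 of 7, 6 of 32, 5 of 20 and 9 of 32 listed genes had none. The 4.90% is therefore a low yardstick for these lists. These lists were chosen with results of these data known, so their counts are a description. The differences between lists were not tested.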

How the data were processed

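Peak lists of 9 ChIP-seq groups were used. Sample titles gave the groups, and the files that speak of 3 factors were read as iGPA. Per the study's methods and the submitters' processing notes, the authors aligned reads to mm9 with Bowtie2, removed duplicates with Picard, kept reads with a mapping quality of at least 40, removed blacklisted regions, and called peaks with MACS2 on merged replicates against merged inputs. The deposited fold enrichment (a ratio, ChIP over local background) and the deposited −log10 p are those of the peak caller, and no value per replicate was used. The lowest −log10 p kept was 4.03 in the iG+A, 3.87 in the iG+P and 4.79 in the Gfi1 list. Between 19.9% and 31.5% of the called peaks of these lists were absent from the deposited summit lists, by a filter not given in the sources used here, and only the kept peaks were used. The local background was recovered by searching for a whole fragment number fitting both deposited values, with a tolerance of 0.001 (99.4% to 100.0% of these peaks).

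Summit windows of 300 bp were joined at 1 bp of overlap, as in the study's methods. Where a site held several summits, the one with the highest fold stood for it. Patterns were searched in NCBIM37, the same assembly as mm9, and starts were those of all transcripts in its annotation. Tandem repeats were called where, over 100 bp centred on the summit, 80% or more of the bases matched the base 1 unit later. Named sites were the top 3 of each class by fold (for shared sites, by the lower of both folds) and the 2 with the highest Gfi1 fold, on chromosomes 1 to 17, 19 and X and outside tandem repeats of 1 to 12 bp units, with the 5 genes with most sites in each class and members of 6 gene lists (115 genes, all matched by symbol). A few genes that this rule names are counted but not reported by name here. Members, lists, patterns and alternatives were chosen with earlier results of these data known. Analyses used Python 3.11.15, NumPy 2.4.6, SciPy 1.17.1 and pysam 0.24.0, and the scripts were tested on simulated data (seed 7).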

Additional observations from a re-analysis of the deposited data

Results flagged for a closer look

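Peaks that the authors called but did not keep in the summit lists were not used in the report, and some lay at sites described as bound by a single factor. Of the 16537 iG+A only sites, 7.73% (1279 sites, exact 95% interval 7.33 to 8.15) had a called iG+P Pou4f3 peak among the 8123 that were not kept. Of the 28582 iG+P only sites, 6.79% (1940 sites, 6.50 to 7.09) had a called iG+A Atoh1 peak among the 9438 that were not kept. The limits that a count of 0 allows were 0.0181% and 0.0105%. There was no control group of libraries for these peaks, and the reason for which they were left out of the summit lists is not given in the sources used here.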

How the results depend on the processing

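Of 72 values recomputed under other settings, 22 stayed within the interval of the reported value and 50 did not. The order of the Gfi1 shares (shared, then iG+A only, then iG+P only) was kept in 11 of 11 settings. No paired analysis was possible because the authors called peaks on merged replicates, and leaving out a replicate was not possible for the same reason. The causes of the shifts were not tested. Values are given in the order shared part of the Atoh1 sites, Gfi1 share of shared, iG+A only and iG+P only sites, AtEAM at iG+A only sites, Pou4f pattern at iG+P only sites, and shared sites within 1 kb of a start, all in percent. Windows of 100 bp gave 11.1, 6.80, 3.26, 1.59, 17.5, 44.3 and 25.7. A −log10 p of at least 10 in both the iG+A and the iG+P list gave 11.0, 14.0, 8.47, 3.87, 23.8, 55.5 and 13.7. All called peaks gave 35.5, 5.21, 3.81, 1.87, 17.7, 45.3 and 21.8. Full peak intervals moved the shared part to 16.0, Gfi1 at the single classes to 3.88 and 1.95, Pou4f to 45.4 and starts to 27.2. Lists of equal length moved the shared part to 12.5, Gfi1 at iG+P only to 2.61, AtEAM to 17.9, Pou4f to 52.0 and starts to 25.1. The upper 50% of the Gfi1 list gave Gfi1 shares of 3.47, 2.10 and 1.00. The plain E-box in place of AtEAM gave 69.7, Pou4f with no mismatch 8.52, a limit of 5 kb 49.8 and protein-coding starts 29.0. Autosomes alone, and Gfi1 peaks outside tandem repeats, moved no value outside its interval. Settings chosen after seeing the data also moved values. Without dense stretches the shared part was 11.3, Gfi1 at shared sites 11.6, AtEAM 21.3, Pou4f 50.6 and starts 54.9. Without high local background the shared part was 16.9 and starts 34.5. Sites over 1 kb from a start gave 16.5 shared, Gfi1 at 3.80 and 1.73 of the single classes, AtEAM 21.8 and Pou4f 51.7. The share in common thus ran from 11.0 to 35.5. Depth limits which weak peaks were called, and without replicate lists no spread between clones can be given.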
